A study of Mus musculus with 43 samples.

Results

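The genes described here are 9 guidance receptors and ligands of vascular endothelium, chosen by symbol from the 54532 genes of the count table. They are the plexin receptors Plxnd1 and Plxna2, the netrin receptor Unc5b, the roundabout receptor Robo4, the semaphorins Sema3c, Sema6a and Sema7a, and the adhesion G protein-coupled receptors Adgrl4 and Adgrf5. They were measured by RNA-seq in 43 libraries of brain endothelial cells (EC), which flow cytometry had isolated from dissected cortex or hippocampus of 2-month-old mice as CD31+ cells lacking CD45 and CD11b. Of the 7 inbred strains, CAST/EiJ and WSB/EiJ (6 libraries each) are recently wild-derived, and 129S1/SvImJ (9 libraries), C57BL/6J and NOD/ShiLtJ (6 each) and A/J and DBA/2J (5 each) are long-inbred. The labels name no engineered allele and no treatment for any strain, so genotype is the strain itself. There were 16 female and 27 male libraries, and 21 came from cortex and 22 from hippocampus. Library titles also carry a tag, high (29 libraries) or low (14), whose meaning is not given in the sources used here, and 15 of the 16 female libraries are titled high. A/J and DBA/2J have 1 female library each. The mouse of origin is not given, so a cortex and a hippocampus library may share an animal, and the p-values below measure only the spread between these libraries.

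Guidance receptors read cues that steer growing axons, and blood vessels use the same families to steer sprouts and to hold a quiescent barrier. Semaphorins signal through plexins, with neuropilins as co-receptors for the secreted class, netrins bind UNC5 receptors, and slits bind roundabout receptors. In endothelium PLXND1 restrains sprouting in response to semaphorins, UNC5B and ROBO4 bind each other and act on vessel permeability, and ADGRL4 and ADGRF5 are orphan or weakly characterised receptors of the adhesion family that are rich in vascular cells.

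Total counts ran from 1626534 to 49372356 per library, and every one of the 9 genes had at least 272 counts in each, so counting error was small beside the differences between libraries. Female libraries were deeper (median 21242100 counts against 5257353) and held a smaller share of counts in 3 genes that collect ribosomal RNA reads (Gm23935, Gm42418 and Gm26917), 1.59% to 12.1% against 12.97% to 29.3% in males, with no overlap (permutation test, two-sided, adjusted p = 8.0e-04). All 20 endothelial markers listed for this work were found and none was at 0 in most libraries; their mean log2(CPM + 1) was 9.40 ± 0.35 (SD, n = 43), where CPM is the usual library-scaled count after TMM normalisation. The same mean was 6.83 for 10 pericyte markers, 6.45 for 10 astrocyte markers, 4.62 for 8 neuron markers, 3.71 for 10 smooth muscle markers (Cnn1 and Pln at 0 in most libraries), 2.37 for 8 oligodendrocyte markers (Mog, Mag and Opalin at 0), 2.03 for 10 fibroblast markers (Lum and Col6a3 at 0), 1.0998 for 10 microglia markers (Tmem119, Aif1, C1qb and Itgam at 0) and 0.84 for 6 choroid plexus markers (Folr1, Kcne2, Clic6 and Prlr at 0). In such bulk samples fewer cells of a type and less RNA per cell cannot be told apart.

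Reference promoters are shown for the 4 genes that differed in at least 1 strain and for Robo4, whose level, among the 9 genes, followed that of Sema7a most closely. Each runs from 250 bases before to 50 bases after a transcription start in RefSeq on GRCm38.p6, the C57BL/6J reference, so the bases of the other strains in these windows are not shown. Plxnd1 lies at chr6:115994956-115995255 on the minus strand, Plxna2 at chr1:194619579-194619878 on the plus strand, Sema7a at chr9:57939862-57940161 on the plus strand, Adgrl4 at chr3:151437632-151437931 on the plus strand and Robo4 at chr9:37401722-37402021 on the plus strand. Capitals mark the letters AGGAAG, a string that ETS factors bind, or GGGCGG, a GC box, on either strand, and no motif overlaps another here. Other strings that ETS factors bind are not marked. The Plxna2 start lies downstream of the first start that GENCODE M21 gives for the gene.
Plxnd1: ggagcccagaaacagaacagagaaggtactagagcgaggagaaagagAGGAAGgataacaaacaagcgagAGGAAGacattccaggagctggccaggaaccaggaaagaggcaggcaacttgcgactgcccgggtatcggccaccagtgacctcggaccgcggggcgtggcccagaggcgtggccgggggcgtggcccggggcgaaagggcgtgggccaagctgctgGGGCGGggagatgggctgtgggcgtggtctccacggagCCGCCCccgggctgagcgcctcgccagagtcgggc
Plxna2: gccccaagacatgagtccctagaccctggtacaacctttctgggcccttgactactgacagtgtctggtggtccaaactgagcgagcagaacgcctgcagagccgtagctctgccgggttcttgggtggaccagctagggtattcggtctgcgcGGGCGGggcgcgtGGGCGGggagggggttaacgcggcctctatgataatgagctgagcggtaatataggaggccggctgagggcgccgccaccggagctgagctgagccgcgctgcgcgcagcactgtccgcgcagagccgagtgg
Sema7a: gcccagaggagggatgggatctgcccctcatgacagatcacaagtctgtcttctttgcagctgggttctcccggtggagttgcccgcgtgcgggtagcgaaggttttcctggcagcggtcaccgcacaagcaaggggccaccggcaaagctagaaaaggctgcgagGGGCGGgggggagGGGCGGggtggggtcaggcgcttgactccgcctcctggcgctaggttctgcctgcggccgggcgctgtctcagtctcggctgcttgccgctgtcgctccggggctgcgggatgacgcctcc
Adgrl4: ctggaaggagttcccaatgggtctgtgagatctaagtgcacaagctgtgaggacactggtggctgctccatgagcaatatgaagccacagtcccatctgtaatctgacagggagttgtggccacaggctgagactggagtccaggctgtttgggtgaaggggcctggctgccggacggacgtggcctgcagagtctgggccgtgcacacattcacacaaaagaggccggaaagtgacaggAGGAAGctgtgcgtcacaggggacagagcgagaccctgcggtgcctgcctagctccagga
Robo4: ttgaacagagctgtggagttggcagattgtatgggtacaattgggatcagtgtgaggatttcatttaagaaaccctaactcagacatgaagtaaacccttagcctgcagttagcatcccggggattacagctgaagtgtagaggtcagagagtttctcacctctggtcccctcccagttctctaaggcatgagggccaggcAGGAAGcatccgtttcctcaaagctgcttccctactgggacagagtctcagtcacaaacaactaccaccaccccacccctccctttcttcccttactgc
The Plxnd1 window held 2 AGGAAG and 2 GGGCGG. Plxna2 and Sema7a held 2 GGGCGG each and no AGGAAG, and Adgrl4 and Robo4 held 1 AGGAAG each and no GGGCGG. Of 32851 RefSeq promoter windows of 300 bases, 35.4% held AGGAAG and 35.7% held GGGCGG on either strand, and TATAAA, found in 13.6%, was in none of the 5 windows. The Plxnd1, Plxna2 and Sema7a windows were richer in G and C (67.0%, 64.7% and 67.3%) than Adgrl4 (58.7%) and Robo4 (50.3%), beside a median of 52.7% over all windows.

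All 9 genes were abundant in these EC. On CPM per kilobase of exon, the scale used for comparing genes, Adgrf5 had the highest level of the 61 listed guidance genes found in the table, at 279.6 ± 44.7 (SD, n = 43), followed by Sema7a at 154.7 ± 52.2 and Adgrl4 at 132.7 ± 34.4. Sema3c (83.0), Robo4 (52.5), Plxnd1 (37.3) and Unc5b (34.5) came next, and Sema6a (27.7) and Plxna2 (14.1) were the lowest of the 9. The level of Plxna2 was above that of 91.9% of the 29106 genes with a length, and the level of each of the other 8 genes was above that of at least 96.5%. Several other ligands and receptors of these families were far lower on this scale. Sema3e, a ligand of PLXND1, was at 0.24, Plxnc1, a receptor of SEMA7A, at 0.50, and Slit2, a ligand of roundabout receptors, at 0.42, whereas Nrp1, a neuropilin, was at 30.0, between Unc5b and Sema6a, and the netrin Ntn4 at 15.2.

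**Figure D1:**
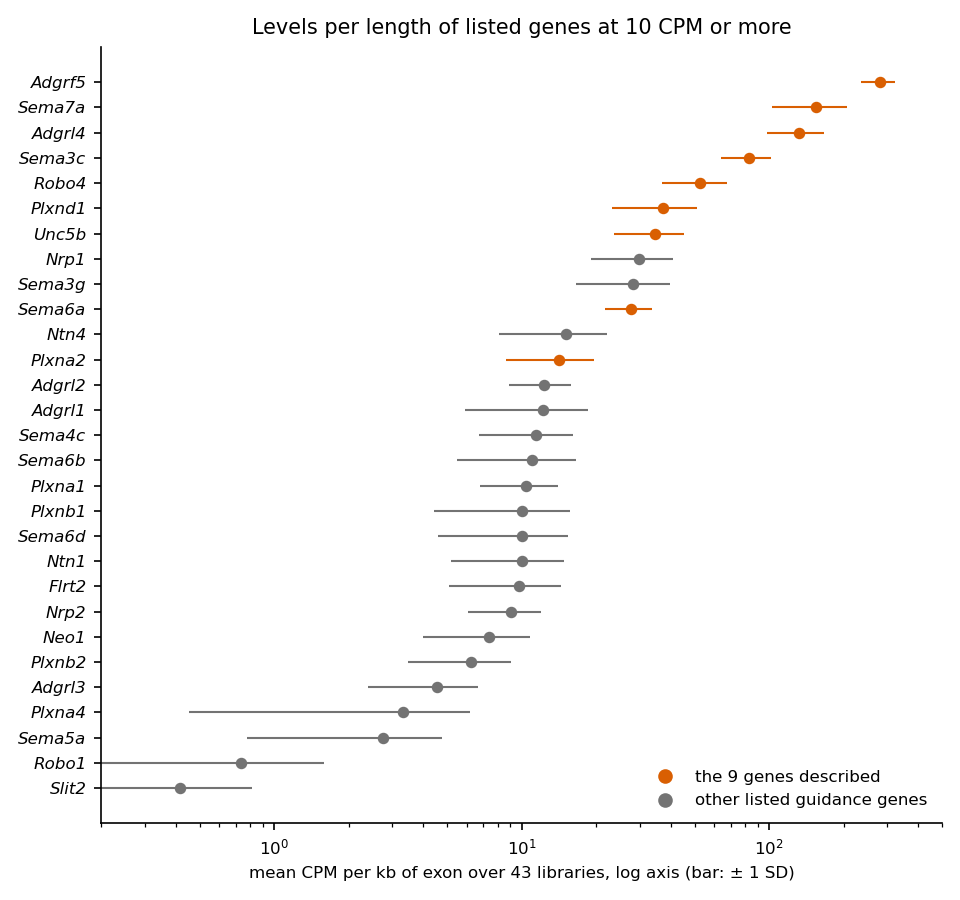
Mean CPM per kilobase of exon (log axis) of the 29 listed guidance genes at 10 CPM or more, over 43 libraries, with bars of 1 SD. The 9 genes described (orange) hold places 1 to 7, 10 and 12, with Nrp1, Sema3g and Ntn4 (grey) between them; the bars of Robo1 and Slit2 run past the left edge.

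Levels of a single gene across libraries are given below as CPM. Strain, which has 7 levels, took up more of the variance of log2(CPM + 1) of each gene than sex, region or tag, from 21.8% for Sema6a to 54.6% for Plxna2, beside a median of 14.7% over all genes tested. In edgeR's quasi-likelihood test between the 7 strains, 3 of the 9 genes passed an adjusted p of 0.05: Plxna2 (adjusted p = 0.00282), Plxnd1 (adjusted p = 0.00333) and Adgrl4 (adjusted p = 0.0476). Of all 29120 genes tested 2.68% passed, but of the 567 genes at least as abundant as the lowest of the 9, 24% did, so 3 of 9 is near what genes of this abundance showed. With the 27 male libraries alone none of the 9 passed (adjusted p = 0.131 for Plxnd1 and 0.115 for Plxna2), and the call of Adgrl4 held in 7 of 23 alternative settings. When each strain was set against the mean of the other 6, 4 of 63 gene and strain combinations passed, 1 in CAST/EiJ (1.35% of all genes, 10.2% of genes of this abundance), 2 in WSB/EiJ (2.41% and 13.1%), 1 in 129S1/SvImJ (1.46% and 8.82%) and none in A/J, C57BL/6J, DBA/2J or NOD/ShiLtJ (0.254%, 0.529%, 0.192% and 0.185% of all genes). In those 4 strains 2, 1, 2 and 1 of the 9 genes had an unadjusted edgeR p under 0.05. The shares of all genes at that unadjusted threshold were 10.1%, 13.2%, 7.66% and 9.52%. DESeq2 called 7 of the 63, beside 3.12% of all its gene and strain combinations.

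**Figure D2:**
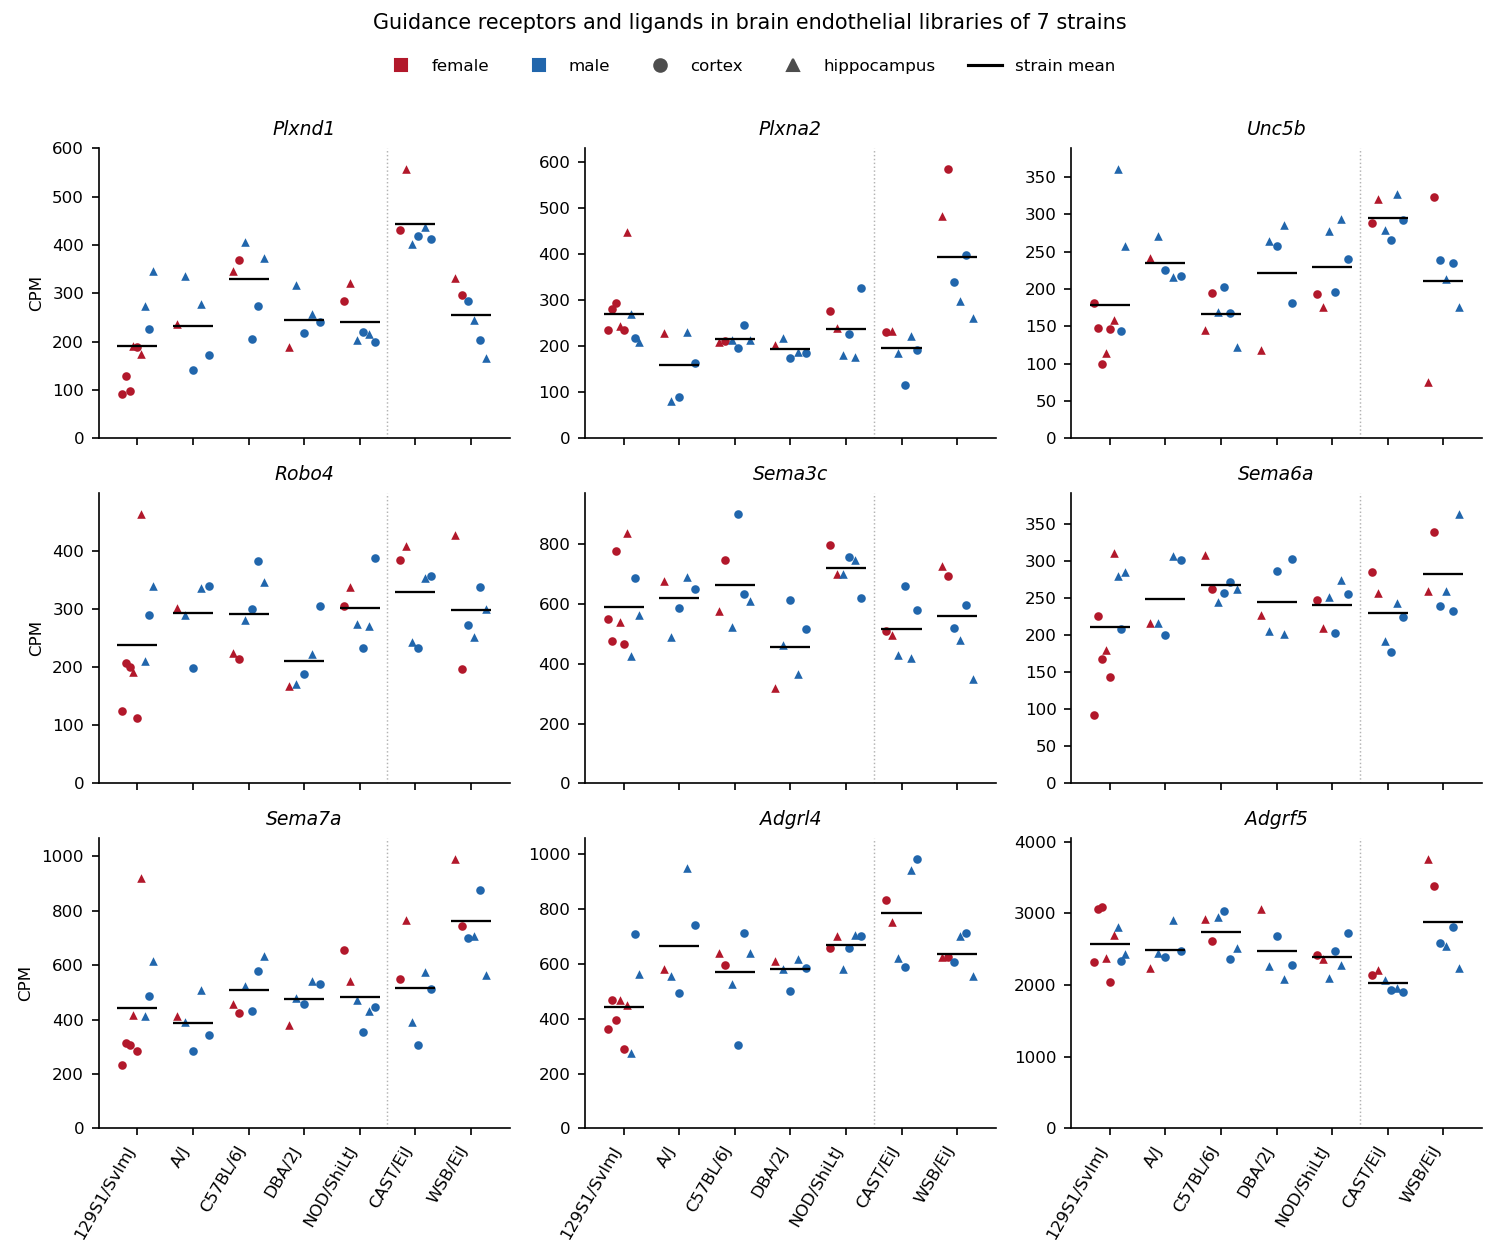
CPM of each gene in each library (linear axes from 0) by strain, with colour for sex, shape for region and a black line for the strain mean; the dotted line divides long-inbred from wild-derived strains. Plxnd1 is high in CAST/EiJ, Plxna2 and Sema7a are high in WSB/EiJ, and the 6 female 129S1/SvImJ libraries lie low for Adgrl4.

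Among the plexins, Plxnd1 (chr6:115954811-115995005, minus strand) was highest in CAST/EiJ. Its CAST/EiJ libraries stood at 431.7 (female cortex), 557.0 (female hippocampus), 418.1 and 412.2 (male cortex) and 400.8 and 437.2 CPM (male hippocampus), a mean of 442.8 ± 57.4 (SD, n = 6). The other 37 libraries ran from 91.0 to 406.1 CPM with a median of 235.5, so 5 of the 6 CAST/EiJ libraries were above all of them and the sixth was above 36. Against the mean of the other strains Plxnd1 was 0.85 ± 0.18 (SE) higher on the log2 scale in CAST/EiJ (edgeR, adjusted p = 0.00145), and in male libraries alone 0.70 ± 0.18 higher (adjusted p = 0.032). C57BL/6J followed with 328.9 ± 75.3 CPM, and the gap between these 2 strains was the sole one between neighbours in the order that was larger than the larger of their SDs. Below it came WSB/EiJ (254.6), DBA/2J (243.9), NOD/ShiLtJ (240.3), A/J (232.5) and 129S1/SvImJ (190.8 ± 82.7, n = 9). In 129S1/SvImJ the 6 female libraries were at 91.0 to 190.9 CPM and the 3 male ones at 226.0 to 345.7, without overlap, and the strain's log2 difference of -0.57 ± 0.17 (edgeR, adjusted p = 0.0618) became 0.091 ± 0.22 among males (adjusted p = 0.99999). Those 6 female libraries were also among the deepest, at 27702669 to 47417529 counts, with 1.59% to 2.74% of counts in the ribosomal genes. With the counts of every library drawn down to the smallest, the 129S1/SvImJ difference stayed negative and did not pass. The part of other traits that go with depth in these values was not tested.

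Plxna2 (chr1:194618218-194816869, plus strand), a receptor for class 6 semaphorins, was highest in WSB/EiJ. Its libraries there held 583.8 (female cortex), 481.2 (female hippocampus), 339.8 and 396.6 (male cortex) and 296.8 and 260.0 CPM (male hippocampus), a mean of 393.1 ± 121.6 (SD, n = 6). The 37 other libraries ran from 80.2 to 447.0 CPM with a median of 216.7, and all 6 WSB/EiJ libraries were above that median although only 2 were above every other library. The log2 difference from the other strains was 0.91 ± 0.17 (edgeR, adjusted p = 5.3e-04), and among males it was 0.73 ± 0.20 (adjusted p = 0.0523). 129S1/SvImJ (269.4 ± 72.3, n = 9) came second and A/J (158.5 ± 72.4, n = 5) last. The A/J difference was -0.61 ± 0.21 (edgeR, adjusted p = 0.233; DESeq2 adjusted p = 0.0213), where the male libraries titled low held 80.2 and 90.1 CPM.

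Of the netrin and roundabout receptors neither Unc5b (chr10:60762593-60831581, minus strand) nor Robo4 (chr9:37401897-37415115, plus strand) passed between strains (edgeR, adjusted p = 0.415 and 0.747). Unc5b was highest in CAST/EiJ, where its 6 libraries lay close together at 264.9 to 326.9 CPM (mean 295.4 ± 23.9), and lowest in C57BL/6J at 122.2 to 201.9 CPM (mean 166.6 ± 30.0), and these 2 strains did not overlap. The CAST/EiJ difference from all other strains was 0.53 ± 0.19 (edgeR, adjusted p = 0.249). The lowest value of Unc5b was 75.0 CPM in the female hippocampal WSB/EiJ library, against 322.6 CPM in the female cortical library of the same strain. Robo4 had strain means from 210.9 ± 57.2 CPM in DBA/2J (n = 5) to 329.3 ± 73.6 in CAST/EiJ (n = 6), and no neighbours in its order differed by more than their SD. Its widest spread was within 129S1/SvImJ, from 112.5 to 462.6 CPM.

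Among the ligands, the membrane-anchored Sema7a (chr9:57940112-57962865, plus strand) was highest in WSB/EiJ, as Plxna2 was. The WSB/EiJ libraries held 743.0 (female cortex), 988.0 (female hippocampus), 699.0 and 877.1 (male cortex) and 706.9 and 564.2 CPM (male hippocampus), a mean of 763.0 ± 148.9 (SD, n = 6), while the other 37 ran from 232.1 to 919.5 with a median of 455.7. Again all 6 were above the median of the rest, and 1 was above every other library. The log2 difference was 0.71 ± 0.16 (edgeR, adjusted p = 0.00739), and among males it was 0.62 ± 0.16 (adjusted p = 0.0362); the test between all 7 strains gave an adjusted p of 0.0849. Strain means of the remaining strains ran from 388.9 ± 83.3 in A/J to 516.9 ± 158.9 in CAST/EiJ, and no neighbours among them differed beyond their SD. The secreted Sema3c (chr5:17574281-17730268, plus strand) ranged from 456.0 ± 117.6 CPM in DBA/2J to 720.3 ± 61.8 in NOD/ShiLtJ, and the transmembrane Sema6a, on chromosome 18, from 210.5 ± 72.2 in 129S1/SvImJ to 281.9 ± 55.0 in WSB/EiJ. Neither passed between strains (edgeR, adjusted p = 0.394 and 0.823), and neither had neighbours that differed beyond their SD.

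The WSB/EiJ means of the endothelial, pericyte and smooth muscle lists lay at an end of the strain order. Marker lists were not tested between single strains. The endothelial marker mean was 8.98 ± 0.32 in WSB/EiJ (8.52 to 9.40), below the other strain means of 9.30 to 9.57, the pericyte mean was 7.55 ± 0.48 (6.88 to 8.17), above the other strain means of 6.36 to 7.36, and the smooth muscle mean was 2.92 ± 0.34, the lowest of the 7. WSB/EiJ values overlapped those of DBA/2J for endothelial (9.01 to 9.70) and smooth muscle markers (2.88 to 3.68). They overlapped those of NOD/ShiLtJ for pericyte markers (6.97 to 7.92). The WSB/EiJ libraries were also shallow, at 1626534 to 5331064 counts. The part of these in the Plxna2 and Sema7a values was not tested.

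Of the adhesion receptors, Adgrl4 (chr3:151437887-151545086, plus strand), also known as Eltd1, was lowest in 129S1/SvImJ. Its 9 libraries there ran from 276.1 to 707.7 CPM with a median of 449.5 and a mean of 442.4 ± 134.8, while the other 34 libraries ran from 303.9 to 980.5 with a median of 623.8. The log2 difference was -0.55 ± 0.13 (edgeR, adjusted p = 0.0164). The 6 female 129S1/SvImJ libraries were at 289.6 to 468.7 CPM and the 3 male ones at 276.1, 562.1 and 707.7; among males the difference was -0.29 ± 0.21 (adjusted p = 0.649), and with the ribosomal share as a covariate it was -0.53 ± 0.14 (adjusted p = 0.0666). CAST/EiJ had the highest mean, 786.1 ± 162.2 CPM (n = 6), with a log2 difference of 0.42 ± 0.15 (adjusted p = 0.2). Adgrf5 (chr17:43360451-43459557, plus strand), known as Gpr116, varied least of the 9, with a coefficient of variation of 15.996% over 43 libraries against 21.4% to 38.9% for the others. It was lowest in CAST/EiJ, where 6 libraries sat between 1900 and 2207 CPM (mean 2034 ± 123), below the next strain mean of 2396 by more than the SD; the log2 difference was -0.35 ± 0.10 (edgeR, adjusted p = 0.0861). It passed in 5 of 23 alternative settings, among them the model with the other labels as covariates (adjusted p = 0.0335) and edgeR with DESeq2 size factors (adjusted p = 0.00923).

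**Figure D3:**
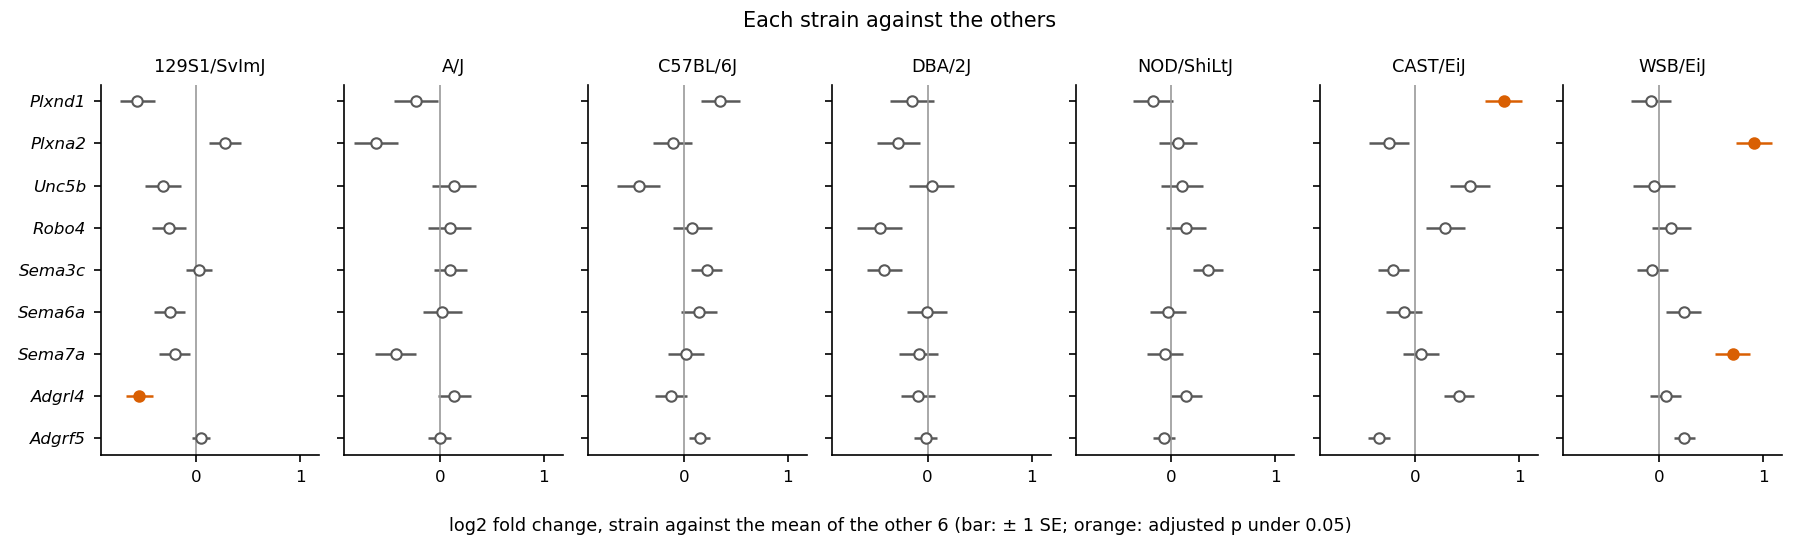
Log2 fold change of each gene in each strain against the mean of the other 6 strains, with bars of 1 SE; filled orange points passed an adjusted p of 0.05. The 4 filled points are Plxnd1 in CAST/EiJ (0.85), Plxna2 (0.91) and Sema7a (0.71) in WSB/EiJ and Adgrl4 in 129S1/SvImJ (-0.55).

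Between wild-derived and long-inbred strains none of the 9 genes passed in edgeR, beside 0.749% of all genes and 5.47% of genes of this abundance. An unadjusted edgeR p under 0.05 was found for 5 of the 9, beside 7.01% of all genes. DESeq2 called 0, beside 2.37% of all genes. Of the 9, 7 had higher values in wild-derived strains, and the median log2 difference of the 9 was 0.32, against -0.38 over all genes and 0.06 over genes of this abundance. Plxnd1 had 348.7 ± 113.5 CPM in 12 wild-derived libraries and 242.4 ± 81.5 in 31 long-inbred ones (log2 difference 0.53 ± 0.16, adjusted p = 0.151), and Sema7a 640.0 ± 195.1 and 460.1 ± 134.9 (0.48 ± 0.14, adjusted p = 0.0985). With the other labels as covariates Sema7a passed (0.49 ± 0.13, edgeR, adjusted p = 0.0317, beside 0.907% of all genes). The differences were 0.41 ± 0.16 for Plxna2, 0.33 ± 0.16 for Unc5b, 0.32 ± 0.13 for Adgrl4, 0.24 ± 0.15 for Robo4, 0.099 ± 0.14 for Sema6a, -0.047 ± 0.090 for Adgrf5 and -0.19 ± 0.12 for Sema3c (adjusted p from 0.428 to 0.849). The values moved with the strain left out. Without CAST/EiJ, where 0.895% of all genes passed, the Plxna2 difference was 0.82 (adjusted p = 0.0177) and that of Sema7a 0.73, and without WSB/EiJ (0.98% of all genes) the Plxnd1 difference was 0.85 (adjusted p = 0.00778) while that of Plxna2 was -0.21 (adjusted p = 0.875).

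Between regions 0 of the 9 genes passed in edgeR, beside 0.0755% of all genes and 0.705% of genes of this abundance. An unadjusted edgeR p under 0.05 was found for 0 of the 9, beside 5.6% of all genes. With DESeq2 0 passed, beside 0.253% of all genes. Differences of hippocampus minus cortex ran from -0.20 ± 0.11 for Sema3c to 0.31 ± 0.16 for Plxnd1 on the log2 scale (adjusted p = 0.669 for both). Between these lay Plxna2 at -0.064 ± 0.16, Adgrf5 at -0.010 ± 0.082, Adgrl4 at 0.056 ± 0.12, Unc5b at 0.064 ± 0.15, Sema6a at 0.11 ± 0.13, Robo4 at 0.13 ± 0.14 and Sema7a at 0.24 ± 0.14. The 95% intervals were -0.42 to 0.02 for Sema3c, -0.0039 to 0.61 for Plxnd1 and -0.03 to 0.51 for Sema7a. Among 18 sets of libraries matched for strain, sex and tag, Sema7a was higher in hippocampus in 15, Plxnd1 in 13 and Sema3c in 4. The region effect did not differ detectably between wild-derived and long-inbred strains (0 of 9 in edgeR with 0% of all genes, 0 at an unadjusted p under 0.05, and 0 of 9 in DESeq2 with 0.105% of all genes) or between sexes (0 of 9 in edgeR with 0.00343% of all genes, 1 at an unadjusted p under 0.05, and 0 of 9 in DESeq2 with 0.133% of all genes). The 1 was Robo4, whose region effect was 0.61 ± 0.28 higher in females (edgeR, adjusted p = 0.99994). Of all genes, 2.32% had an unadjusted edgeR p under 0.05 for the difference by origin and 3.7% for that by sex.

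Between sexes 0 of the 9 genes passed in edgeR, beside 2.85% of all genes and 24% of genes of this abundance. An unadjusted edgeR p under 0.05 was found for 2 of the 9, beside 13.1% of all genes. DESeq2 called 1, Unc5b, beside 6.24% of all genes. Plxna2 was at 289.2 ± 112.5 CPM in 16 female and 214.8 ± 70.3 in 27 male libraries, a log2 difference of 0.43 ± 0.15 (adjusted p = 0.121). Unc5b was at 182.5 ± 75.5 in females and 236.0 ± 56.0 in males, a difference of -0.37 ± 0.15 (adjusted p = 0.217). The other differences of female minus male were 0.13 ± 0.079 for Adgrf5, 0.099 ± 0.11 for Sema3c, 0.064 ± 0.14 for Sema7a, -0.065 ± 0.16 for Plxnd1, -0.099 ± 0.13 for Sema6a, -0.099 ± 0.14 for Robo4 and -0.16 ± 0.12 for Adgrl4 (adjusted p from 0.463 to 0.872). Female and male values overlapped for every gene. Strains were not balanced between the sexes, as 129S1/SvImJ gave 6 of the 16 female and 3 of the 27 male libraries. Without that strain the difference turned positive for Adgrl4 (0.031), Plxnd1 (0.28), Robo4 (0.051) and Sema6a (0.069), none of which passed in edgeR. The other genes kept their sign. In 12 sets matched for strain, region and tag, Adgrl4 was lower in females in 10, Unc5b in 8 and Plxna2 in 4, and Adgrf5 was higher in females in 10. The sexes also differed in depth and ribosomal share, as given above, and sex and ribosomal share cannot be told apart here; the median log2 difference over all genes was -0.12 with TMM scaling and -0.24 with DESeq2 size factors.

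**Figure D4:**
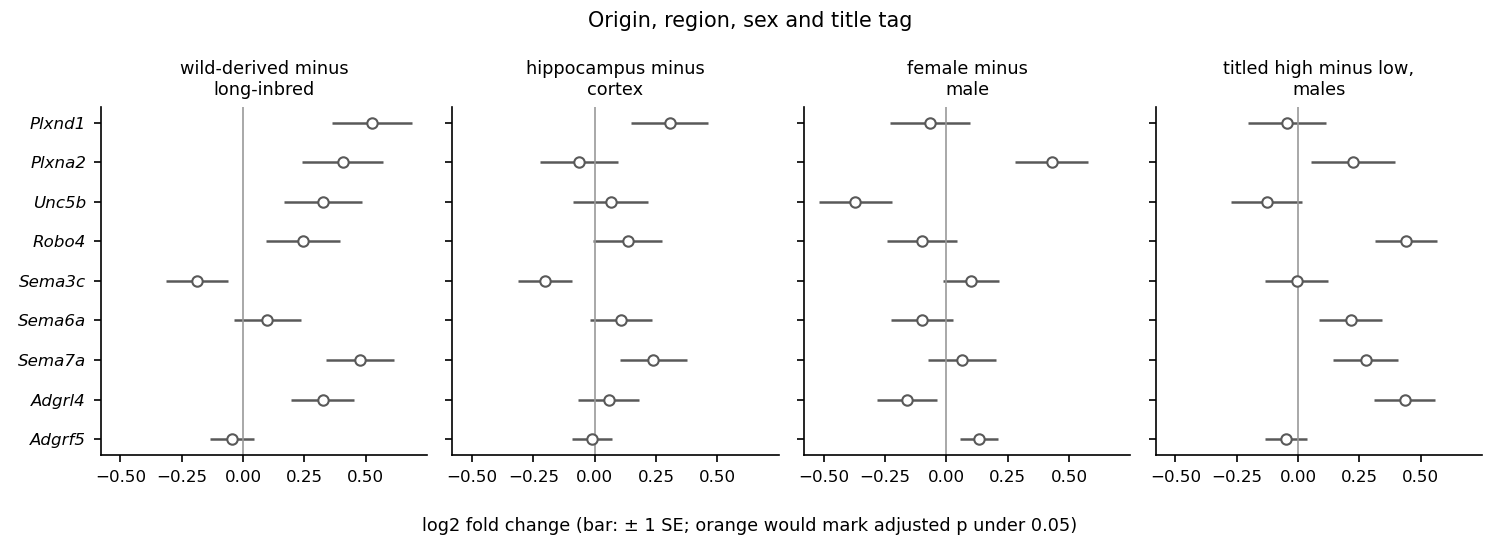
Log2 fold change of each gene for origin, region, sex and title tag (males only), with bars of 1 SE; no point passed an adjusted p of 0.05, so all are open. Robo4 (0.44) and Adgrl4 (0.43) lie farthest to the right for the tag, and Plxnd1 (0.53) and Sema7a (0.48) for origin.

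The title tag was compared within the 27 male libraries, 14 titled high and 13 low. None of the 9 genes passed in edgeR, beside 1.06% of all genes and 19.5% of genes of this abundance. An unadjusted edgeR p under 0.05 was found for 3 of the 9, beside 8.11% of all genes. DESeq2 called 2, Robo4 and Adgrl4, beside 9.63% of all genes. Robo4 was at 222.2 to 387.9 CPM (median 337.8) in libraries titled high and 171.2 to 300.3 (median 242.8) in those titled low, a log2 difference of 0.44 ± 0.13 (edgeR, adjusted p = 0.0718). Adgrl4 was at 556.8 to 980.5 CPM (median 705.4) and 276.1 to 699.6 (median 579.7), a difference of 0.43 ± 0.12 (adjusted p = 0.0718). The groups overlapped for both genes, but in 13 pairs matched for strain and region each was higher in the library titled high in 12. The exception was NOD/ShiLtJ hippocampus for Robo4 and WSB/EiJ hippocampus for Adgrl4. The other differences were 0.28 ± 0.13 for Sema7a, 0.22 ± 0.17 for Plxna2, 0.21 ± 0.13 for Sema6a, -0.0054 ± 0.13 for Sema3c, -0.047 ± 0.16 for Plxnd1, -0.051 ± 0.086 for Adgrf5 and -0.13 ± 0.14 for Unc5b (adjusted p from 0.59 to 0.992). Sema6a and Sema7a were higher in 11 of 13 pairs, Plxna2 in 9, and Plxnd1, Unc5b, Sema3c and Adgrf5 in 5 or 6. With strain and region in the model both genes passed (edgeR, adjusted p = 0.00863 for Robo4 and 0.00575 for Adgrl4, beside 2.29% of all genes). The marker lists moved with the tag: the endothelial mean was 9.50 (8.52 to 9.82) in libraries titled high and 9.15 (8.79 to 9.48) in those titled low, a difference of 0.36 (permutation test, two-sided, adjusted p = 0.0395 over 40 list comparisons), and the astrocyte, neuron and oligodendrocyte means were lower in libraries titled high by -0.84 (5.41 to 6.97 against 6.39 to 8.07), -1.03 (3.09 to 5.68 against 4.24 to 6.15) and -0.83 (0.88 to 3.18 against 1.53 to 3.63), with adjusted p of 0.0088, 0.0088 and 0.0358. Their part in the Robo4 and Adgrl4 values was not tested.

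Of the 62 genes of the guidance lists (plexins and neuropilins, semaphorins, netrins and their receptors, slits and roundabouts, and adhesion receptors of the L and F groups), 61 were tested, and 52 of these are not among the 9. Between strains 4 of the 52 passed (edgeR, 2.68% of all genes): Sema5a (adjusted p = 4.2e-05), the latrophilin Adgrl3 (adjusted p = 0.00261), Sema6d (adjusted p = 0.00645) and the netrin Ntn4 (adjusted p = 0.0186). Sema5a was lower in CAST/EiJ by -2.19 ± 0.42 on the log2 scale and higher in NOD/ShiLtJ by 1.41 ± 0.31 and in WSB/EiJ by 1.30 ± 0.32. WSB/EiJ also had higher Adgrl3 (0.99 ± 0.23) and Sema6d (0.96 ± 0.21) and lower Ntn1 (-1.33 ± 0.33), the guidance cue of UNC5B, and Ntn1 was the 1 of the 52 that passed between wild-derived and long-inbred strains (-1.07 ± 0.25, adjusted p = 0.0107). Between regions, sexes and tags 0 of the 52 passed in edgeR, with 4, 7 and 7 at an unadjusted p under 0.05. Of all genes, 5.6%, 13.1% and 8.11% were under that unadjusted threshold. The median log2 differences of the 52 were -0.12, -0.09 and -0.34 in these comparisons, beside 0.03, -0.12 and 0.04 over all genes.

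Across the 43 libraries some of the 9 genes varied together. On log2(CPM + 1), Robo4 and Sema7a had the highest Pearson r of the 36 pairs, 0.67 (Spearman 0.61; permutation test, two-sided, adjusted p = 3.6e-04 and 7.2e-04 over the 36 pairs). It was 0.57 without the 2 libraries farthest from the median of Robo4, 0.83 in females, 0.40 in males and 0.82 after subtracting strain means. Sema6a followed both, with r of 0.60 to Sema7a (0.46 without the 2 libraries farthest from the median of Sema6a, 0.76 in females and 0.34 in males) and 0.58 to Robo4 (0.36 without the 2 farthest from the median of Robo4, 0.64 in females and 0.41 in males). Plxna2 followed Sema7a with r of 0.58 (0.61 in females and 0.72 in males). Robo4 and Adgrl4 had r of 0.57 (0.41 without the 2 and 0.47 in males), and Plxnd1 and Adgrl4 0.51, but the latter was 0.81 in females and 0.21 in males. Unc5b and Adgrf5 had the lowest r, -0.47 (-0.48 in females and -0.31 in males). It was -0.28 without the 2 libraries farthest from the median of Unc5b and -0.26 after subtracting strain means. Both genes of a pair were read from the same library, so they share its depth and cell makeup.

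**Figure D5:**
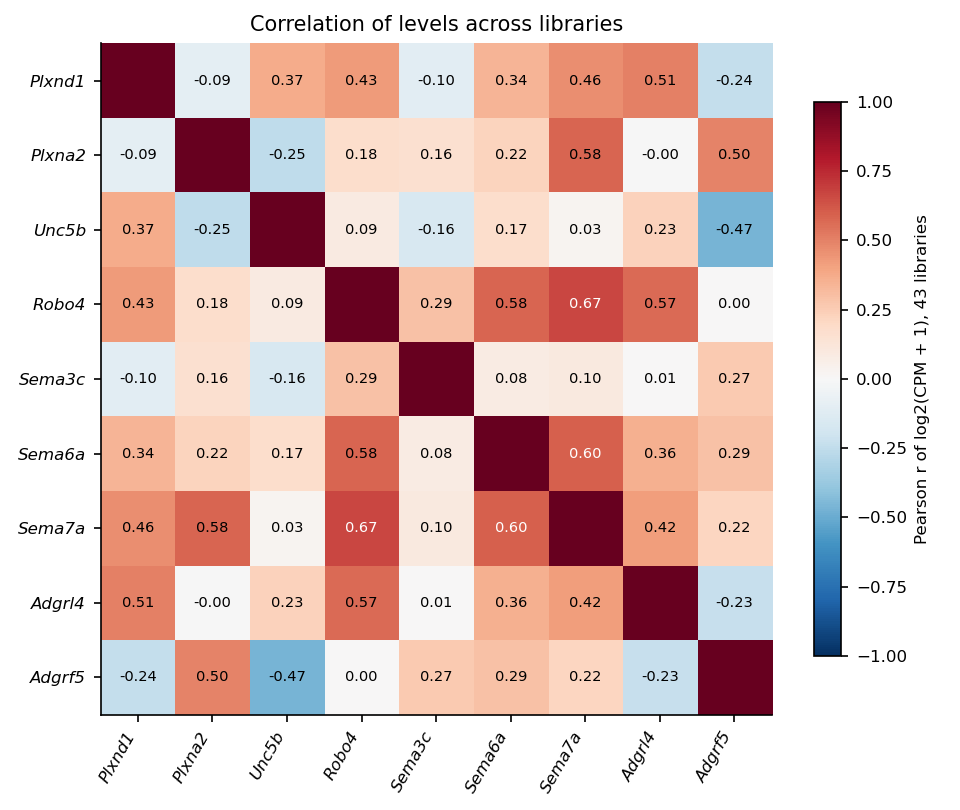
Pearson r of log2(CPM + 1) between each pair of the 9 genes over 43 libraries, on a colour scale from -1 to 1. Robo4, Sema7a and Sema6a form the highest group (0.58 to 0.67), and Unc5b is lowest with Adgrf5 (-0.47).

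Of the 8679 genes with a mean of at least 10 CPM, those closest to each of the 9 by Pearson r of log2(CPM + 1) over the 43 libraries were as follows, and in the 27 males alone r was between 0.19 and 0.81. Robo4 was closest to Slc2a1 (0.84, and 0.81 in males), Slco1c1 (0.78) and S1pr1 (0.76). Sema7a was closest to Mtus1 (0.81, and 0.78 in males), Notch1 (0.77) and Pcdh1 (0.77), and Adgrl4 to Lrrc8c (0.79), Slc39a10 (0.77) and Slc1a1 (0.75). Plxna2 was closest to Sgms1 (0.77), Lrrc59 (0.68) and Map3k4 (0.67), and Plxnd1 to Jup (0.67), Serinc3 (0.66) and Lama4 (0.65). The closest genes were Pxk (0.75), Irgm2 (0.73) and Gpr146 (0.73) for Sema6a, for which r in males was 0.49, 0.34 and 0.19, and Ddx6 (0.70, and 0.35 in males) and Abhd2 (0.67) for Unc5b. Sema3c was closest to Zfp148 (0.61), Rab11fip1 (0.60) and Lrrk1 (0.60), and Adgrf5 to Akap12 (0.67), Timeless (0.67) and Limch1 (0.65).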

How the data were processed

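RNA from sorted CD31+ brain EC was depleted of rRNA and made into stranded total RNA libraries. The authors aligned reads to mm10; the submitters' processing notes name HISAT2 2.1.0, SAMtools 1.9 and featureCounts of Subread 1.4.4. The deposited values are raw counts per gene; whether counting used strand is not given in the sources used here. Reads of every strain were aligned to 1 reference, so strains that differ from it may lose reads. No exon of another GENCODE M21 gene overlapped an exon of the 9 genes. Groups came from the labels. Other strains of the study are not analysed here.

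The 29120 genes that reached 0.5 CPM in 1 library or more entered edgeR 4.0.16 (TMM, quasi-likelihood F test on adjusted deviances, R 4.3.3), with Benjamini-Hochberg adjustment over all of them and 1 label as the sole term (2 labels and their product for differences of the region effect). Tests between groups of libraries were not paired, since the labels do not name the mouse. The use of adjusted rather than default deviances was taken over from earlier work on these data that had seen the counts under both; the default is among the alternatives. SE is the log2 fold change over the root of F, and intervals are 1.96 SE. Fits with covariates left out genes whose fitted count exceeded 5 times the highest observed. Alternatives were DESeq2 1.42.0 and its size factors, 2 filters, other labels or the share of counts in 3 rRNA-like genes as covariates, counts drawn down to the smallest library, subsets by sex, region and tag, and leaving out strains, 1 library or, in A/J and DBA/2J, each replicate. Marker means and correlations were compared with permutation tests (100000 resamples; two-sided). Neighbouring strains were called different where their means differed by more than the larger SD. Motifs were the 3 kept of 6 looked for. The edgeR fits were also run on simulated counts with known changes, and the outcome is not reported here.

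The 9 genes, the marker and guidance lists and the tests were chosen with earlier results of these data known. All 9 genes were tested in every comparison, with up to 5 other listed genes per comparison and direction that passed, and for each of the 9 the 3 genes with the highest correlation, of which 1 is not reported here; Nrp1, Ntn4, Sema3g, Sema3e, Plxnc1, Robo1 and Slit2 were named after their levels were seen. Protein sequences and a Sema6a promoter were not used here.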

Additional observations from a re-analysis of the deposited data

Results flagged for a closer look

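In 6 of 63 groups formed by 1 gene and 1 strain, 1 library stood apart from the others by more than the 95% limit of Dixon's test, and chance gives about 1 in 20. Plxnd1 was high in the female hippocampal CAST/EiJ library, at 557.0 CPM against 437.2 CPM for the next. Plxna2 was high in a female hippocampal 129S1/SvImJ library (447.0 against 292.4 CPM) and in a male cortical C57BL/6J library titled high (246.0 against 212.6 CPM), and low in a male cortical CAST/EiJ library titled low (114.5 against 185.7 CPM). Adgrl4 was low in a male cortical C57BL/6J library titled low (303.9 against 524.9 CPM) and in a male hippocampal NOD/ShiLtJ library titled low (579.7 against 656.7 CPM). The counts behind these values ran from 412 to 17877. All 3 low values came from male libraries titled low.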

How the results depend on the processing

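The 4 strain differences kept their direction under all 23 alternatives tried for each: Plxnd1 in CAST/EiJ at 0.70 to 0.98 (passing in 21), Plxna2 in WSB/EiJ at 0.70 to 1.13 (21), Sema7a in WSB/EiJ at 0.56 to 0.87 (20) and Adgrl4 in 129S1/SvImJ at -0.60 to -0.29 (19). Where they did not pass, the libraries were those of 1 region, of males or titled high, or the ribosomal share was a covariate. A fit of 1 region or 1 sex has fewer samples, and the part of sample number in these results was not tested. Of the 9 genes, 3 passed between strains (2.68% of all genes); 6 did with DESeq2 (7.85% of all genes), 5 with default deviances (46.4%), 1 in libraries titled high (2.41%), 1 with counts drawn down (2.25%) and 0 in male (1.72%), cortical (0.771%) or hippocampal libraries (0.722%). Leaving out A/J or DBA/2J replicates gave 2 to 3 here and 4 to 5 of the 63 strain combinations. Of the 63 strain combinations, 4 passed (0.912% over all genes), and 7 did with DESeq2 (3.12%), 7 with default deviances (10.7%), 2 in males (0.423%), 1 in cortex (0.337%) and 0 in hippocampus (0.294%). Counts of 0 became, for sex, 1 with DESeq2 (6.24% of all genes), 1 with DESeq2 size factors (2.01%; both Unc5b) and 2 with default deviances (36%); for the tag, 2 with DESeq2 (9.63%), default deviances (30.2%), filterByExpr (3.43%) or label covariates (2.29%) and 1 without WSB/EiJ (1.5%); and for origin, 3 with default deviances (23%), 1 with label covariates (0.907%), 1 without C57BL/6J (0.736%), 2 without CAST/EiJ (0.895%) and 1 without WSB/EiJ (0.98%). The cause was not tested.

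Log2 differences that changed sign did not pass in either setting. For sex, Sema3c was -0.029 with DESeq2, -0.028 with its size factors, -0.028 in cortex and -0.090 drawn down; Sema7a was -0.090 with DESeq2, -0.090 with its size factors, -0.14 in cortex, -0.060 drawn down, -0.036 in libraries titled high, -0.095 with label covariates, -0.018 without CAST/EiJ and -0.031 without NOD/ShiLtJ; Adgrf5 was -0.044 drawn down. With the ribosomal share as a covariate the sex differences were -0.096 (Adgrf5), 0.24 (Adgrl4), 0.36 (Plxnd1), 0.31 (Robo4), 0.18 (Sema6a) and 0.22 (Unc5b), and without 129S1/SvImJ they were 0.031 (Adgrl4), 0.28 (Plxnd1), 0.051 (Robo4) and 0.069 (Sema6a). Robo4 was 0.18 in hippocampus. For the tag, Sema3c was 0.0047 with filterByExpr, 0.10 in hippocampus, and 0.017, 0.020, 0.014 and 0.032 without C57BL/6J, CAST/EiJ, DBA/2J and NOD/ShiLtJ. For region, Unc5b was -0.014 in libraries titled high, -0.037 with the ribosomal share and -0.076 without 129S1/SvImJ. Adgrl4 was -0.022 and Robo4 -0.086 in males, and Robo4 was -0.0043 and Sema6a -0.032 without 129S1/SvImJ. Plxna2 was 0.029 with label covariates, 0.0027 without NOD/ShiLtJ and 0.028 without WSB/EiJ, and Adgrf5 was 0.013 with the ribosomal share and 0.018 without NOD/ShiLtJ. For origin, Sema6a was -0.088 in males and -0.081 without WSB/EiJ, Adgrf5 was 0.18 without CAST/EiJ and Plxna2 -0.21 without WSB/EiJ. Plxnd1 in 129S1/SvImJ was 0.091 in males. The region effect of Sema6a by origin was 0.041 with DESeq2 and 0.045 with its size factors. Of the other single-gene values, 873 were counted as unchanged, 30 passed only in the alternative and 11 no longer passed. Unchanged meant the same direction and call. For the mean levels under other scalings or pseudocounts, which have no call, it meant a shift smaller than the SD. Default deviances, and the alternatives for the differences of region effects, were chosen after seeing the data. No paired analysis was possible because the labels do not name the mouse and so pair no libraries by animal; counts over sets matched by strain, region, sex or tag are given with the region, sex and tag comparisons and were not tested. The fewest counts behind any value of the 9 genes was 272.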

Other observations

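A single library carried the highest 129S1/SvImJ value of 5 of the 9 genes. The female hippocampal library with 38277327 counts held 447.0 CPM of Plxna2, 462.6 of Robo4, 836.6 of Sema3c, 311.0 of Sema6a and 919.5 of Sema7a, and its Robo4 value was the highest of all 43 libraries. Its Plxnd1 (173.8 CPM), Unc5b (158.5) and Adgrl4 (449.5) were within the range of the other female 129S1/SvImJ libraries. The female hippocampal WSB/EiJ library with 4309378 counts held the highest Sema7a (988.0 CPM) and Adgrf5 (3753 CPM) of all 43 and the lowest Unc5b (75.0 CPM).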
